A study of Homo sapiens with 6 samples.

Results

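The integrin α chains described here are the 10 genes *ITGA1*, *ITGA2*, *ITGA3*, *ITGA4*, *ITGA5*, *ITGA6*, *ITGA9*, *ITGA10*, *ITGA11*, and *ITGAV*, taken by gene symbol from a count table of 60623 genes and grouped by the matrix ligand each is known to bind. The 8 other α chain genes of the human genome were kept as a comparison list. The samples were cultures of TC28a2, an immortalized human chondrocyte line, treated either with mocetinostat, which inhibits class I histone deacetylases (HDACs), or with its solvent dimethyl sulfoxide (DMSO), with 3 replicates in each condition. The study's methods give 2 μM mocetinostat for 24 hours. All samples are of this 1 line, grown in culture and not taken from cartilage. The study describes the 3 replicates of each condition as coming from separate experiments, so p-values measure the spread between experiments on this line.

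Integrins are cell-surface receptors made of an α and a β chain, and the α chain largely decides which matrix protein is bound. The chains α1, α2, α10, and α11 carry an inserted domain that binds collagen, and each pairs with β1. α3 and α6 make laminin receptors, α5 and αV recognize the RGD tripeptide of proteins such as fibronectin and vitronectin, and α4 and α9 bind VCAM-1, osteopontin, tenascin-C, and alternatively spliced fibronectin. In cartilage these receptors attach chondrocytes to their pericellular matrix and carry mechanical signals, and α10β1 is known as a collagen II receptor of chondrocytes.

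The laminin-binding chain α6 and the collagen-binding chains α1 and α2 were 4.39- to 6.28-fold higher with mocetinostat, whereas α3, α5, αV, and α11, the most abundant chains with DMSO, moved by less than the called fold. Of the 10 members 6 (*ITGA1*, *ITGA2*, *ITGA6*, *ITGA10*, *ITGA4*, and *ITGA9*) were called higher at an adjusted p under 0.05 and a log2 fold change over 1 by edgeR's quasi-likelihood test, against 20.2% of the 13966 genes tested. The count called lower was 0 by edgeR and 0 by DESeq2, against 8.18% of all genes, and 1 member, *ITGAV*, was lower at an unadjusted p under 0.05 by either tool. At the adjusted p alone, 8 members were higher and 1 was lower, beside 32.9% and 31.4% of all genes. In 8 members, among them *ITGA10*, *ITGA4*, and *ITGA9*, every treated value was above every control value, as in 33.7% of all genes. *ITGA10*, *ITGA4*, and *ITGA9* reached the expression filter of 2.01 CPM (read counts scaled to a common library total) in the mocetinostat-treated samples and in 0 DMSO-treated samples, so these 3 could enter the test only if they differed, and they are not counted as support. Of the remaining 7 members, 3 were called higher, 5 were higher and 1 lower at the adjusted p, and the median log2 fold change was 0.51, beside -0.00 over all genes tested (1.66 with the 3 included).

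Total counts per library were 4873426 to 11031132 with DMSO and 1619344 to 5089542 with mocetinostat, so the treated libraries were on the whole shallower. Of the 14 chondrocyte markers examined, 8 passed the expression filter, 2 of them (*SOX5* and *COMP*) in treated samples only. The other 6 were higher with mocetinostat at the adjusted p, beside 32.9% of all genes. The summed level of the list was 117.6 to 142.2 CPM with DMSO and 265.2 to 307.5 CPM with mocetinostat, the lowest log2 fold change was 0.77, for *SOX9*, and *CNMD* was at 0 in every library. Markers of other cell types were mostly scarce in control cells. Of 5 tested endothelial markers 2 (*PECAM1* and *KDR*), and both tested epithelial markers (*EPCAM* and *CDH1*), reached the filter in treated samples only. Of the other 3 endothelial markers 1 was called higher, beside 20.2% of all genes. The lowest, *CDH5* (log2 fold change 0.12), did not pass. The endothelial and epithelial summed levels with DMSO and with mocetinostat were 7.60 to 10.6 CPM against 42.8 to 50.8 CPM and 1.33 to 2.17 CPM against 31.1 to 39.8 CPM. The summed level of every marker list here includes genes that reached the filter in treated samples only. Among them with mocetinostat, *KDR* was at 22.8 to 27.6 CPM and *CDH1* at 16.6 to 22.9 CPM. Differences between these sums are therefore not counted as support. Of the leukocyte markers, 2 of 8 were tested, of which *CD14* reached the filter in treated samples only and *CSF1R* did not pass, *CD3E* and *HBB* were at 0 in all libraries and the summed level was 5.16 to 8.12 CPM with DMSO and 8.72 to 14.3 CPM with mocetinostat. The part of these marker genes in the results on integrins was not tested, and in bulk RNA more cells of a type and more RNA per cell cannot be told apart.

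Positions are on GRCh38 (GENCODE 44). *ITGA1* and *ITGA2* are close together on the plus strand of chromosome 5, at chr5:52787916-52959209 and chr5:52989340-53094779. *ITGA6* (chr2:172427354-172506459), *ITGA4* (chr2:181457202-181538940), and *ITGAV* (chr2:186590010-186680901) are all on the plus strand of chromosome 2. *ITGA3* is at chr17:50055968-50090481 and *ITGA9* at chr3:37452115-37823507, both on the plus strand. *ITGA10* (chr1:145891208-145910111), *ITGA11* (chr15:68296532-68432163), and *ITGA5* (chr12:54395261-54419266) are on minus strands. Because counts are over exons and the strand setting of the counting is not given in the sources used here, exons of opposite-strand genes matter: they cover 26.4% of the exon bases of *ITGA4*, 9.23% of *ITGA9*, 8.06% of *ITGA1*, 5.26% of *ITGA6*, and under 2% of each other member.

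To show what the genes that moved and a gene that did not look like at their starts, the bases just upstream of *ITGA6*, *ITGA2*, *ITGA1*, and *ITGA11* are printed 5′ to 3′ on the gene's strand (RefSeq, GRCh38.p14, exon-free stretch of the 250 bases before the start), with the GC box GGGCGG, a motif bound by SP and KLF family factors, in capitals. Their positions are chr2:172427471-172427585, chr5:52989102-52989339, chr5:52787666-52787915, and, on the minus strand, chr15:68432164-68432413. The stretch of *ITGA6* precedes the RefSeq start and lies between exons of the gene as GENCODE draws it.
ITGA6: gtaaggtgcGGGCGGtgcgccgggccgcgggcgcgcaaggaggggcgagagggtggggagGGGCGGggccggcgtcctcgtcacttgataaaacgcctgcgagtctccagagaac
ITGA2: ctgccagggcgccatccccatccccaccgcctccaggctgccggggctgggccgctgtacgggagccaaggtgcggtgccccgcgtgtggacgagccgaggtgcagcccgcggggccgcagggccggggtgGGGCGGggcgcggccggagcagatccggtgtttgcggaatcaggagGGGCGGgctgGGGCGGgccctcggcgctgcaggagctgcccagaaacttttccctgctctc
ITGA1: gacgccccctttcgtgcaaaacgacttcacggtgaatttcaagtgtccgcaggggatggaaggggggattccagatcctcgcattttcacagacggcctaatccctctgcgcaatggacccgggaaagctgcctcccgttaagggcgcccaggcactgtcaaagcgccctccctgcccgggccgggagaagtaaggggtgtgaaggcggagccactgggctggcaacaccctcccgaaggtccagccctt
ITGA11: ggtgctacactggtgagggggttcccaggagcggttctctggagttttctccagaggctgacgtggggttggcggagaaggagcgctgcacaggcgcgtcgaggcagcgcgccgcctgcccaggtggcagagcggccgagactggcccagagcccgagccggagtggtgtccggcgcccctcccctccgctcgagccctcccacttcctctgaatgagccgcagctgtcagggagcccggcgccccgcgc
These stretches hold 2, 3, 0, and 0 GC boxes in the printed direction, and their GC contents are 72.2%, 75.6%, 62.0%, and 71.2%. *ITGA6* and *ITGA2*, both called higher, thus carry the box, while *ITGA1*, also called higher, and *ITGA11*, not called, do not.

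Promoter windows of 300 bases (250 before and 50 after the RefSeq start) were found for 8 of the 10 members, all except *ITGA3* and *ITGA9*. Read on both strands, GGGCGG was present in 3 of the 8 (*ITGA2*, *ITGA6*, and *ITGA5*) and in 45.0% of all 35116 windows. CCAAT was present in 1 (*ITGA10*) and 34.6% of all, TGANTCA, an AP-1 site, in 1 (*ITGA5*) and 7.71% of all, and TATAAA in 0 and 11.5% of all. None of these motifs contains another. The number of CpG dinucleotides per window was 38 in *ITGA6*, 31 in *ITGA4*, 29 in *ITGA11*, 27 in *ITGA2*, 19 in *ITGA1*, 16 in *ITGA5*, 2 in *ITGA10*, and 1 in *ITGAV*, against a median of 14. Of the members called higher, *ITGA6*, *ITGA4*, *ITGA2*, and *ITGA1* were above that median and *ITGA10* was below it. Of those not called, *ITGA11* and *ITGA5* were above it and *ITGAV* below. *ITGA4* and *ITGA10* reached the expression filter in treated samples only. The RefSeq window of *ITGAV* lies within the gene as GENCODE draws it. Letters in a window are a description and say nothing of binding.

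**Figure D1:**
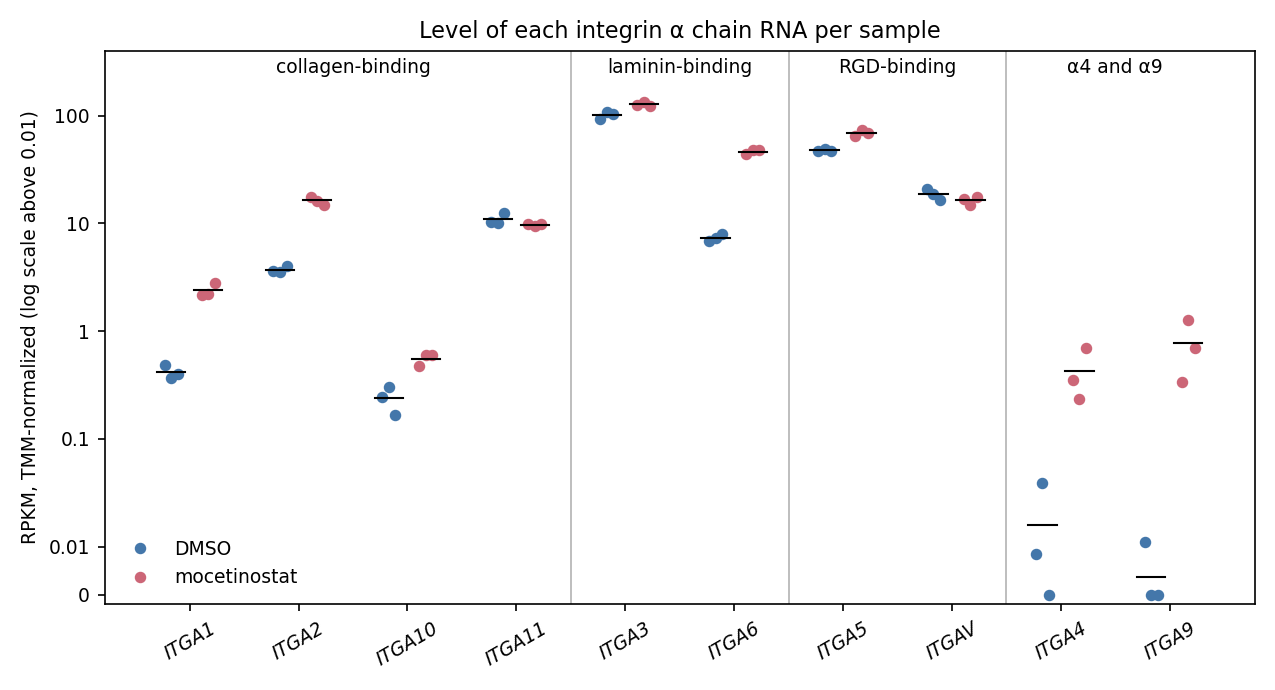
RNA level of each of the 10 α chains as TMM-normalized RPKM (y axis, logarithmic above 0.01 and linear below), grouped by ligand. Points are the 3 samples of each condition and bars their means. The mocetinostat points of ITGA1, ITGA2, and ITGA6 sit well above the DMSO points, those of ITGAV overlap them, and ITGA4 and ITGA9 start at or near 0.

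Among the laminin receptors, *ITGA6*, whose chain pairs with β1 or with β4 of hemidesmosomes, rose by a larger fold than *ITGA3*. Its counts were 507, 234, and 362 with DMSO and 1470, 517, and 767 with mocetinostat, which is 45.9, 48.7, and 53.3 CPM against 291.4, 320.4, and 317.9 CPM. All treated samples were far above all control samples, although the treated libraries were on the whole shallower. The mean rose from 49.3 ± 3.78 to 309.9 ± 16.0 CPM (SD, n = 3), a 6.28-fold difference (log2 fold change 2.65, SE 0.10, adjusted p = 5.87e-37 by edgeR). This was the smallest adjusted p of the 10 members.

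*ITGA3*, which encodes the α3 chain of the laminin-332 receptor α3β1, had the highest level of any member in both conditions. Its levels were 921, 1051, and 1016 CPM with DMSO and 1243, 1308, and 1206 CPM with mocetinostat. The groups did not overlap, and the mean rose 1.26-fold, from 996 ± 67.0 to 1252 ± 51.6 CPM (SD, n = 3; log2 fold change 0.33, SE 0.07, edgeR adjusted p = 1.24e-05), which is under the called fold. Without the expression filter, a setting that moved the median of all genes by -0.25, the log2 fold change was 0.08 and no longer passed (adjusted p = 0.446).

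Within a library, the ratio of *ITGA6* to *ITGA3* does not depend on scaling between libraries. In counts per kilobase it was 0.0731, 0.0680, and 0.0771 with DMSO and 0.344, 0.359, and 0.387 with mocetinostat. *ITGA3* thus stayed the more abundant laminin receptor RNA, while its excess over *ITGA6* shrank 4.997-fold (exact permutation p = 0.1, the smallest that 3 against 3 samples allow). This ratio and the 5 others given below were chosen after the values were seen, and their p adjusted over the 6 ratios was 0.12 except for *ITGA6* to *ITGB4*.

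Of the collagen-binding chains, *ITGA1* and *ITGA2* rose, *ITGA10* was called higher at low counts, and *ITGA11* did not pass the test. *ITGA1*, the α1 chain of a receptor that prefers basement membrane collagen IV, was at 9.05, 6.87, and 7.37 CPM with DMSO and 40.0, 40.9, and 52.2 CPM with mocetinostat. Every treated sample was higher than every control sample, from 7.76 ± 1.14 to 44.4 ± 6.79 CPM (SD, n = 3), 5.55-fold (log2 fold change 2.47, SE 0.19, edgeR adjusted p = 6.02e-19). *PELO*, a gene within the *ITGA1* locus whose exons overlap it on the same strand, did not pass (log2 fold change 0.28, adjusted p = 0.131).

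*ITGA2*, whose chain binds fibrillar collagen I, was at 28.3, 28.1, and 32.0 CPM with DMSO and 140.2, 128.3, and 118.1 CPM with mocetinostat. Here too the groups were far apart, with means of 29.5 ± 2.18 and 128.9 ± 11.04 CPM (SD, n = 3) and a 4.39-fold difference (log2 fold change 2.14, SE 0.12, edgeR adjusted p = 6.52e-26).

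*ITGA11*, the α11 chain of the fibroblast collagen receptor, was the most abundant collagen-binding chain in control cells. It was at 111.8, 110.4, and 134.3 CPM with DMSO and 107.3, 102.9, and 108.2 CPM with mocetinostat. All treated values lay just below all control values, as for 32.8% of all genes, and the difference did not pass the test (log2 fold change -0.16, SE 0.10, edgeR adjusted p = 0.173). It passed as lower without DMSO replicate 1 (log2 fold change -0.23, adjusted p = 0.0429). It also passed, at -0.41, without the expression filter, a setting that moved the median of all genes by -0.25. Its sign reversed to 0.37 when libraries were scaled to *GAPDH*, which moved the median of all genes by 0.54, and to 0.022 when libraries were thinned to the depth of the shallowest.

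*ITGA10*, the chondrocyte collagen II receptor chain, was scarce. Its counts were 17, 9, and 7 with DMSO and 15, 6, and 9 with mocetinostat, or 1.54, 1.87, and 1.03 CPM against 2.97, 3.72, and 3.73 CPM. Relative to depth all treated samples were higher (log2 fold change 1.19, SE 0.52, edgeR adjusted p = 0.0376). The call was lost when any 1 of the 6 libraries was left out (adjusted p = 0.0562 to 0.160), with DESeq2 (adjusted p = 0.183), with a replicate block (adjusted p = 0.0606), and in a test against the fold threshold itself (adjusted p = 0.581).

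The order of the collagen receptor chains differed between the conditions. The ratio of *ITGA2* to *ITGA11* in counts per kilobase was 0.348, 0.351, and 0.328 with DMSO and 1.80, 1.72, and 1.503 with mocetinostat, so *ITGA11* exceeded *ITGA2* in every control library and *ITGA2* exceeded *ITGA11* in every treated one (4.89-fold, exact permutation p = 0.1). The ratio of *ITGA1* to *ITGA11* went from 0.0474, 0.0365, and 0.0322 to 0.219, 0.233, and 0.283 (6.33-fold, exact permutation p = 0.1). In each case the treated ratios lay entirely above the control ratios.

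Neither RGD-binding chain was called. *ITGA5*, the α5 chain of the main fibronectin receptor, was at 349.3, 364.6, and 349.7 CPM with DMSO and 473.8, 546.0, and 504.4 CPM with mocetinostat. All treated samples were higher, by 1.43-fold (log2 fold change 0.51, SE 0.08, edgeR adjusted p = 1.08e-08), which is short of the called fold.

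*ITGAV*, the shared α chain of the vitronectin and TGF-β-activating receptors, was at 404.7, 361.3, and 317.9 CPM with DMSO and 322.6, 283.8, and 342.7 CPM with mocetinostat. The conditions overlapped, since 2 treated samples exceeded the lowest control. The means of 361.3 ± 43.4 and 316.4 ± 29.9 CPM (SD, n = 3) differed by a log2 fold change of -0.19 (SE 0.08, edgeR adjusted p = 0.0414). That pass was lost without DMSO replicate 1 (adjusted p = 0.168), mocetinostat replicate 1 (0.0771), or mocetinostat replicate 2 (0.176), with DESeq2 (adjusted p = 0.0524), and with RLE factors or library size alone, and under *GAPDH* scaling the sign reversed to 0.35. Measured within libraries, the ratio of *ITGA5* to *ITGAV* was 2.26, 2.64, and 2.88 with DMSO and 3.85, 5.04, and 3.85 with mocetinostat, 1.64-fold higher with no overlap (exact permutation p = 0.1).

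*ITGA4* and *ITGA9*, receptor chains best known from leukocytes and from epithelium and smooth muscle, had almost no reads in control cells and 2.48 to 10.5 CPM with mocetinostat. With DMSO *ITGA4* had 1, 2, and 0 counts, and with mocetinostat 19, 4, and 18. Pooled over libraries and divided by TMM-scaled library sizes, the 41 treated against 3 control counts make a ratio of 34.1. Its exact 95% interval of 10.9 to 172 covers counting error only (edgeR adjusted p = 3.20e-08). With DMSO *ITGA9* had 1, 0, and 0 counts, and with mocetinostat 14, 17, and 14, a pooled ratio of 112 with an interval of 19.2 to 4534 (edgeR adjusted p = 5.07e-10). Both genes had more counts in every treated library than in any control library. As given above, both reached the expression filter in treated samples only, so these adjusted p are not counted as support.

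Genes that share exon bases with these 2 on the opposite strand held few counts. *CERKL*, opposite *ITGA4*, had 0 counts in each control library and 5, 0, and 1 in the treated ones. For *ITGA9-AS1* the counts were 3, 3, and 6 in control and 5, 1, and 7 in treated libraries. *ITGA4* counts thus exceeded those of *CERKL* in each treated library, and *ITGA9* counts exceeded those of its antisense gene likewise. Without the strand setting, reads of such partners cannot be told apart. The summed leukocyte markers were also higher in every treated library, as given above. That sum includes *CD14*, at 0.21 to 1.36 CPM with DMSO and 4.16 to 9.92 CPM with mocetinostat, which reached the filter in treated samples only. *CSF1R*, the other tested marker, was at 3.24 to 5.62 CPM with DMSO and 2.07 to 3.10 CPM with mocetinostat. The part of these markers in the *ITGA4* result was not tested.

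**Figure D2:**
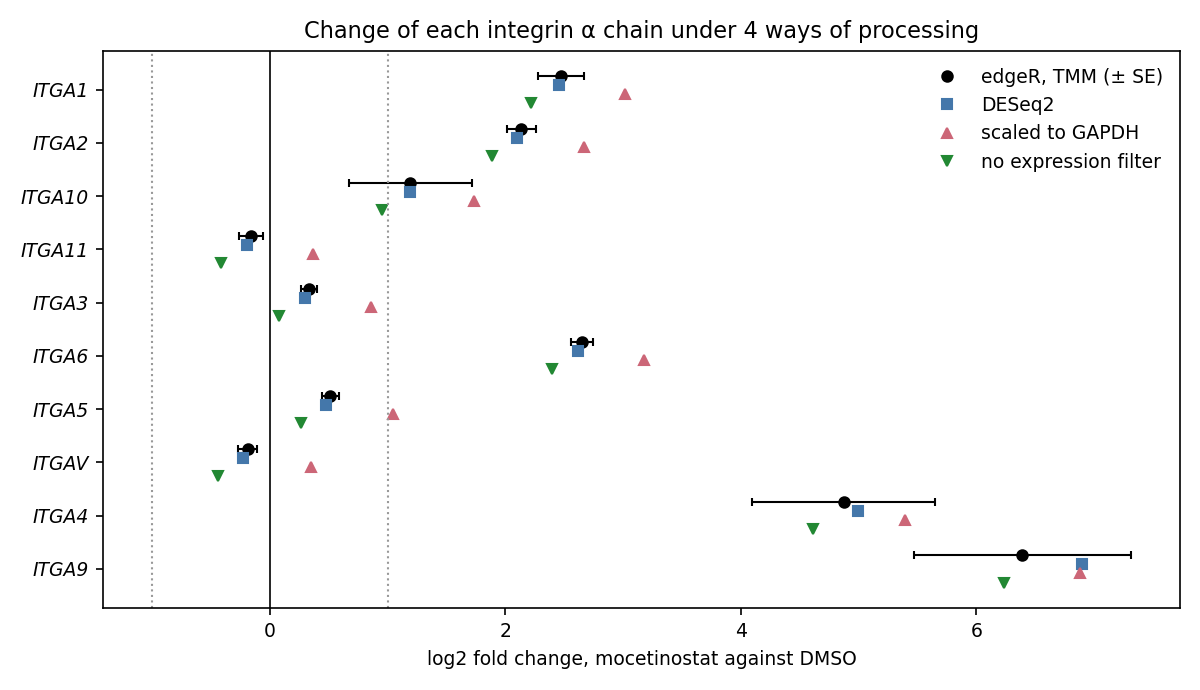
Log2 fold change of each member, mocetinostat against DMSO (x axis), under edgeR with TMM (black, ± SE), DESeq2, scaling to GAPDH, and no expression filter. Dotted lines mark log2 fold changes of 1 and -1. ITGA1, ITGA2, and ITGA6 stay beyond 1 under all 4, and ITGA11 and ITGAV change sign with GAPDH scaling.

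Per kilobase of exon, the order of levels in control cells ran from *ITGA3* (101.6 ± 6.84 RPKM, SD, n = 3) through *ITGA5* (48.0 ± 1.18), *ITGAV* (18.7 ± 2.24), *ITGA11* (10.9 ± 1.23), *ITGA6* (7.38 ± 0.565), *ITGA2* (3.73 ± 0.276), *ITGA1* (0.419 ± 0.061), and *ITGA10* (0.237 ± 0.068 RPKM) to *ITGA4* and *ITGA9*, which were under 0.02 RPKM on average. The samples of each gene were separate from those of its neighbour in this order except between *ITGA4* and *ITGA9*. With mocetinostat *ITGA3* (127.8 ± 5.26 RPKM) and *ITGA5* (68.8 RPKM) kept the lead, and *ITGA6* (46.4 ± 2.40 RPKM) moved from rank 5 to rank 3. *ITGAV* (16.4 ± 1.55 RPKM) and *ITGA2* (16.3 ± 1.398 RPKM) then overlapped, followed by *ITGA11* (9.76 ± 0.260 RPKM), *ITGA1* (2.39 ± 0.366 RPKM), *ITGA9* (0.770 ± 0.473 RPKM), *ITGA10* (0.557 ± 0.069 RPKM), and *ITGA4* (0.429 ± 0.243 RPKM), of which neighbours among the last 3 overlapped. The ranks were the same when the canonical transcript length replaced the union of exons.

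Summed over the 10 members, α chain RNA was 183.7, 197.0, and 192.4 RPKM with DMSO and 282.2, 300.1, and 286.4 RPKM with mocetinostat, which is 1.52-fold higher with no overlap (exact permutation p = 0.1). The sum of the laminin-binding chains rose 1.598-fold in the means (109.0 to 174.2 RPKM), that of the RGD-binding chains 1.28-fold (66.7 to 85.2 RPKM), and that of the collagen-binding chains went from 15.3 to 29.0 RPKM. The laminin group therefore held most of the added RNA, from *ITGA6* and *ITGA3* together.

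As shares of this sum, the laminin group was 54.9%, 58.1%, and 58.0% with DMSO and 60.4%, 60.5%, and 59.6% with mocetinostat. Inside the group the makeup shifted: *ITGA3* fell by 9.03 percentage points, from 53.1% ± 1.75 to 44.1% ± 1.02, while *ITGA6* went from 3.86% ± 0.250 to 16.0% ± 0.578 (SD, n = 3). The RGD group was 37.1%, 34.6%, and 33.2% with DMSO and 28.7%, 29.5%, and 30.04% with mocetinostat, 5.55 percentage points lower in the mean. Its loss came with *ITGAV* at 9.81% ± 1.45 against 5.66% ± 0.683 and *ITGA5* at 25.1% ± 0.569 against 23.7% ± 0.955. The collagen group went from 7.95%, 7.30%, and 8.82% to 10.7%, 9.50%, and 9.89%, with *ITGA11* at 5.73% against 3.38% and *ITGA2* at 1.95% against 5.64%. *ITGA4* and *ITGA9* together made 0.010% and 0.412%. In all 4 groups the conditions did not overlap, and each difference had an exact permutation p of 0.1, the smallest possible here. Shares must sum to the whole, so a rise of one group lowers the others. Without *ITGA3*, the laminin share (then *ITGA6* alone) rose by 20.4 percentage points and the RGD share fell by 22.0, while the collagen share moved by 0.833.

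**Figure D3:**
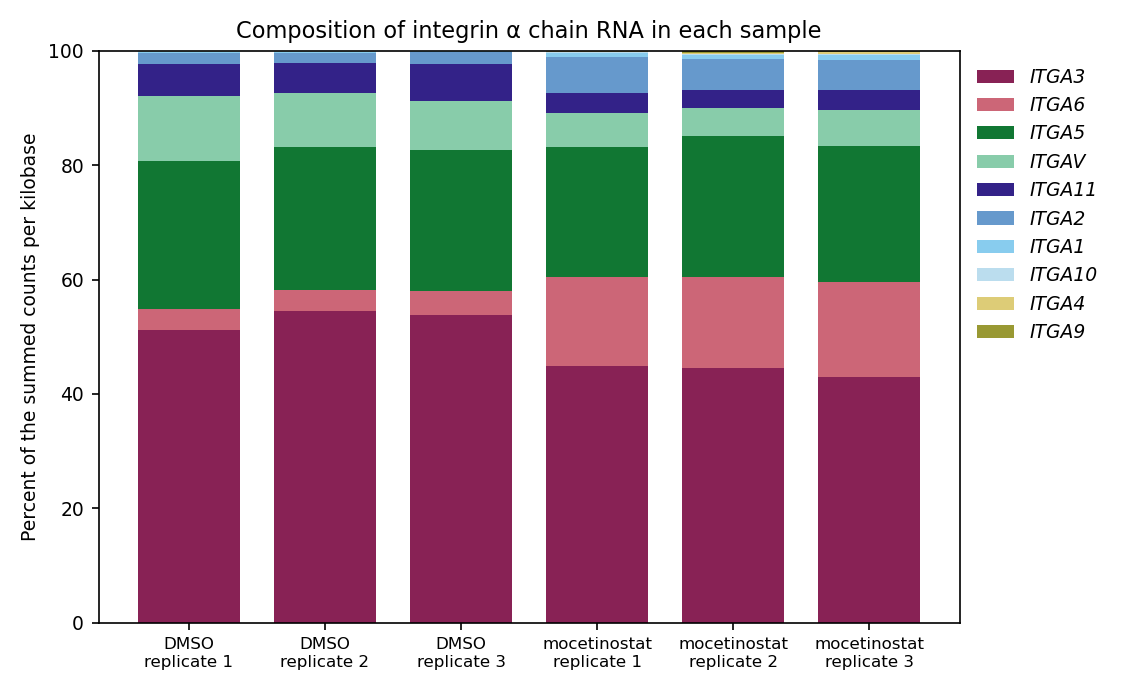
Share of each α chain in the summed counts per kilobase of the 10 members (y axis, percent), 1 bar per sample. The ITGA6 segment widens from a mean of 3.86% with DMSO to 16.0% with mocetinostat, the ITGAV segment narrows from 9.81% to 5.66%, and the 3 bars of a condition look alike.

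The β chains, with which α chains pair at the cell surface, did not follow 1 pattern. *ITGB1*, a known partner of every one of these α chains, had 5163, 2209, and 2933 counts in control and 2625, 695, and 1128 in treated libraries and did not pass the test (453.1 ± 18.4 and 472.9 ± 45.1 CPM, log2 fold change 0.07, SE 0.08, edgeR adjusted p = 0.440). *ITGB3*, a partner of αV, was called higher at 16.9 ± 1.38 against 77.3 ± 4.16 CPM (log2 fold change 2.20, SE 0.14). *ITGB4*, the partner of α6 in hemidesmosomes, had 17, 7, and 31 counts in control and 95, 33, and 56 in treated libraries and was also called higher (log2 fold change 3.05, SE 0.31). *ITGB8* (40.8 to 57.7 CPM, log2 fold change 0.50) passed without the fold, *ITGB5* did not pass (98.01 and 110.6 CPM, log2 fold change 0.16, adjusted p = 0.166), and *ITGB2*, *ITGB6*, and *ITGB7* had at most 10 counts in any library and were not tested.

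The ratio of *ITGA6* to *ITGB1* in counts per kilobase was 0.214, 0.231, and 0.269 with DMSO and 1.22, 1.62, and 1.48 with mocetinostat (6.06-fold, exact permutation p = 0.1). Per kilobase of exon, *ITGA6* was thus below *ITGB1* in every control library and above it in every treated one. This order rests on division by exon length. In counts *ITGA6* stayed below *ITGB1* in every library, with 1470, 517, and 767 against 2625, 695, and 1128 with mocetinostat. The ratio of *ITGA6* to *ITGB4* was 30.2, 33.8, and 11.8 with DMSO and 15.7, 15.9, and 13.9 with mocetinostat. These overlapped (exact permutation p = 0.4), the low control value being DMSO replicate 3.

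**Figure D4:**
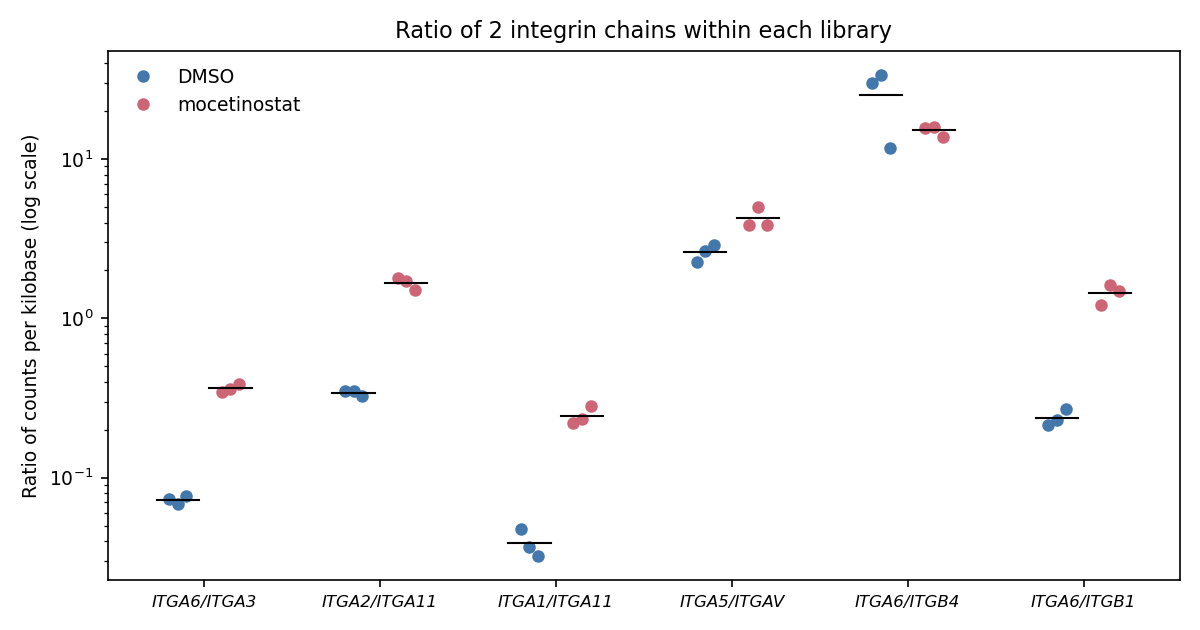
Ratios of counts per kilobase of integrin chain pairs within each library (y axis, logarithmic). Points are samples and bars means. ITGA6/ITGA3, ITGA2/ITGA11, ITGA1/ITGA11, ITGA5/ITGAV, and ITGA6/ITGB1 are separate between the conditions, and ITGA6/ITGB4 overlaps.

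Laminin genes encode ligands of α3 and α6. Of 11 laminin chain genes, all tested, 4 were called higher and 0 lower (edgeR), beside 20.2% and 8.18% of all genes. At the adjusted p alone 9 were higher and 1 lower, beside 32.9% and 31.4% of all genes, and the median log2 fold change was 0.75. Leaving out *LAMA2*, which reached the filter in treated samples only, 3 of 10 were called higher and 8 were higher at the adjusted p. The highest was *LAMA3*, the α chain of laminin-332, with 73, 29, and 37 counts in control and 193, 64, and 84 in treated libraries (log2 fold change 2.62, SE 0.21), and the lowest was *LAMB2* (log2 fold change -0.43, SE 0.10). Of 14 collagen genes, 13 were tested, with 2 called higher and 1 lower, beside the same 20.2% and 8.18% of all genes. At the adjusted p alone 3 were higher and 5 lower, beside 32.9% and 31.4%, and the median was -0.05. *COL2A1*, cartilage collagen II, was highest (2.20 ± 0.683 to 28.7 ± 7.54 CPM, log2 fold change 3.70), and *COL3A1* lowest (528 ± 40.7 to 208 ± 8.02 CPM, log2 fold change -1.35). No test compared the lists with each other.

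Of 11 RGD ligand genes, 8 were tested, with 3 called higher and 0 lower, beside 20.2% and 8.18% of all genes. Their median log2 fold change was 0.47. Of 8 ligands of α4 and α9, 6 were tested, with 1 called higher and 2 lower, beside those same shares. Their median was -0.17, and *SPP1* and *FN1* stand in both lists. *SPP1*, which encodes osteopontin, was highest in both, with 3, 2, and 0 counts in control and 82, 31, and 51 in treated libraries (log2 fold change 6.25, SE 0.48). It reached the expression filter in treated samples only, and without it 2 of 7 RGD ligands and 0 of 5 ligands of α4 and α9 were called higher, with medians of 0.30 and -0.32. Lowest of the RGD ligands was *EDIL3* (log2 fold change -0.48). *VCAM1*, the endothelial and inflammatory adhesion molecule that α4β1 binds, fell from 3391, 1599, and 2322 counts to 115, 44, and 81 (327 ± 18.4 to 27.9 ± 5.41 CPM, log2 fold change -3.60, SE 0.12, adjusted p = 2.43e-40). *ITGA4*, which reached the filter in treated samples only, and this ligand gene thus differed in opposite directions.

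Of the 8 other α chain genes, 4 were tested and 2 were called higher, beside 20.2% of all genes. These were *ITGAX*, the CD11c chain (log2 fold change 3.12, SE 0.42), and *ITGA7*, a laminin receptor chain known from muscle (6.34 ± 0.479 to 32.5 ± 1.95 CPM, log2 fold change 2.35, SE 0.21). *ITGAX* reached the filter in treated samples only, and 1 of the remaining 3 was called. *ITGA2B* passed with a log2 fold change of 0.97, and *ITGAE* was lower at the adjusted p (16.8 ± 1.59 to 9.22 ± 1.72 CPM, log2 fold change -0.83, SE 0.23). *ITGA7* was named beyond the highest and lowest after its values were seen, as was *ITGA2B*.

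The intracellular machinery of adhesion, such as talins, kindlins, and focal adhesion kinases, was described by 27 genes, of which 24 were tested. Of these, 3 were called higher and 1 lower, beside 20.2% and 8.18% of all genes. At the adjusted p 9 were higher and 7 lower, near the shares of all genes (32.9% and 31.4%), with a median log2 fold change of 0.07. *PTK2B*, a kinase related to focal adhesion kinase, was highest (5.06 ± 0.243 to 27.2 ± 2.06 CPM, log2 fold change 2.41), and *TNS3*, a tensin that links integrins to actin, was lowest (146.5 ± 7.16 to 66.3 ± 6.11 CPM, log2 fold change -1.16).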

How the data were processed

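The authors deposited raw counts per gene for 6 libraries. Per the labels and the study's methods, reads were trimmed, cleared of ribosomal RNA, aligned to GRCh38 with STAR 2.6.1d and counted with featureCounts 1.6.4. The strand setting is not given in the sources used here. Genes were tested with edgeR 4.0.16 (quasi-likelihood, TMM, filterByExpr with a minimum count of 10, Benjamini-Hochberg over 13966 genes) and called, as in the study's methods, where the adjusted p was under 0.05 and the log2 fold change was beyond 1 in size. DESeq2 1.42.0 was an alternative. RPKM used TMM-scaled CPM and the union of exons in GENCODE 44, which matched 99.5% of IDs. Ratios and shares used exact two-sided permutation tests in SciPy 1.17.1. On counts simulated for this comparison with 13966 genes, edgeR called 191 of 193 tested genes changed by a log2 fold change of 2, and 0 unchanged genes. That simulation changed 200 genes, as many up as down. It does not cover smaller changes, or data like these in which most calls are higher. The members and all lists were chosen with earlier results of these data known. All members are named, all β chains, and of each other list the genes with the highest and lowest log2 fold change. Shallow libraries, down to 1619344 counts, limit precision most for genes with few counts, and intervals cover counting error only. *GAPDH* itself was lower with mocetinostat (log2 fold change -0.53, SE 0.06).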

Additional observations from a re-analysis of the deposited data

How the results depend on the processing

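Of the members, *ITGA1*, *ITGA2*, and *ITGA6* were called higher under every alternative run, with log2 fold changes of 2.22 to 3.01, 1.88 to 2.67, and 2.40 to 3.18. With a minimum of 10 counts in each sample, or with libraries thinned to the depth of the shallowest, *ITGA4*, *ITGA9*, and *ITGA10* were not tested, and 3 members were called higher (5 and 5 at the adjusted p alone). Leaving out 1 library gave 5 called higher throughout and 7 at the adjusted p. Counts of all genes called under these settings are given below. These counts include *ITGA4* and *ITGA9*, which in the main run reached the expression filter in treated samples only. The number lower at the adjusted p was 0 with DESeq2, RLE factors, library size, *GAPDH* scaling, the 10-count minimum, and thinning, 2 without the expression filter, and 0 to 1 on leaving out 1 library. *GAPDH* scaling moved the median of all genes by 0.54 and made 94.0% of calls higher, against 71.2%, and leaving out the filter moved it by -0.25 (60.2% higher). Under *GAPDH* scaling, *ITGA11* (0.37) and *ITGAV* (0.35) reversed and *ITGA5* was called higher (1.04), and thinning of the libraries turned *ITGA11* to 0.022, also reversed. Same-numbered samples did not deviate together (r = 0.00779, 0.0116, and -0.0162). Noise in genes with few counts can hide a shared deviation, so this does not settle whether the numbers pair samples. With a replicate block 5 members were called higher, beside 2798 of 13966 genes, *ITGA10* losing its call (log2 fold change 1.21).

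In the other lists, *GAPDH* scaling gave 4 collagen ligands called higher and 0 lower, 9 laminin ligands higher, 2 α4 and α9 ligands higher and 1 lower, and 6 adhesion genes higher and 0 lower. Under that scaling 4425 of all 13966 genes tested were called higher and 284 lower. The 10-count minimum gave 1 other α chain, 1 β chain, 1 collagen ligand, and 0 α4 and α9 ligands higher, beside 1620 of 10876 genes. Thinning gave 1 collagen ligand higher and 1 other α chain lower, as did no filter for the latter (1). Of all genes tested, thinning called 1873 of 11745 higher and 850 lower, and no filter called 2120 of 40504 lower. Adhesion genes called lower numbered 2 with DESeq2, 3 without the filter, 0 against the fold threshold, and 1 to 2 on leaving out 1 library (2 without DMSO replicate 2 or 3 or mocetinostat replicate 1 or 2). Over all genes DESeq2 called 1174 of 21658 lower, and the test against the fold threshold 465 of 13966. Other α chains called higher on leaving out 1 library numbered 2 to 4 (4 without DMSO replicate 1 or mocetinostat replicate 2) and called lower 0 to 1 (1 without mocetinostat replicate 1). Those runs called 2842 to 3216 of all genes higher and 1173 to 1267 lower, of 14281 to 14797 tested. The share differences without *ITGA3* were 0.833 for collagen, 20.4 for laminin, -22.0 for RGD, and 0.713 for α4 and α9, and leaving out 1 library gave 1.65 to 2.41, 2.07 to 3.69, -6.44 to -4.45, and 0.357 to 0.486. The summed level was 2.18-fold higher with *GAPDH* scaling and 1.395-fold with canonical lengths, a choice made after seeing the data. Counts without genes that reached the filter in treated samples only were likewise added after seeing the data. Where an alternative moved a value, the cause was not tested.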
